A study of Mus musculus with 30 samples.

Results

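The comparison set 48 h of culture against 24 h in extraocular muscle of the mouse, the tissue that turns the eyeball: 3 arrays titled 48 hour EOM against 3 titled 24 hour EOM, on each of a pair of Affymetrix array types called A and B. These 12 arrays were taken by title from 30 in all, and the others, at 0, 4 and 12 h, entered the fit only for the spread between arrays and for 1 further comparison of the second 24 h with the first. Both groups held total RNA of cultured extraocular muscle, and time was the only difference the labels name. The labels do not give strain, age, culture medium, the event from which the hours were counted, or whether replicates were separate cultures. The p-values set a difference between times against the scatter of arrays within times, pooled over all times, and that scatter may be technical. 1 of the B arrays titled 0 h has a source name of leg muscle, so the named B differences between the second and first 24 h are given with and without it. The question was which transcripts still changed during the second day.

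Values are linear intensities per probe set, a group of oligonucleotides read as 1 measurement, and each array had been scaled to the same mean before deposit. After a filter on mean intensity 13577 of 22690 probe sets were tested on the A type and 13507 of 22575 on the B type. Changes are log2 differences of intensity plus 16, 48 h minus 24 h, with their SE, and adjusted p-values are those of limma over all probe sets of a type, with 3 arrays per time. No array of either time stood apart over all probe sets: the mean correlation with the other arrays of the same time was 0.969 to 0.979 on the A type and 0.863 to 0.886 on the B type.

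When amino acids run short or proteins misfold, a kinase phosphorylates the initiation factor eIF2, most translation slows, and the transcription factor ATF4 is made. ATF4 with CHOP (Ddit3) then switches on genes for amino acid synthesis and uptake, tRNA charging and redox control, together with their own inhibitors. Skeletal muscle cells in culture pass from dividing myoblasts, led by Myod1, to fused myotubes that fill with sarcomere proteins and use embryonic and perinatal myosins. In the present arrays the fibre markers were measured throughout: 12 of 12 on the A type passed the filter, with summed intensities of 58631.7 to 71777.5 at 48 h, against 54061.6 to 78711.5 at 24 h. Of 8 satellite cell and myoblast markers 6 passed, and their sum was 9272.0 to 11793.9 at 48 h, against 12265.9 to 13174.8 at 24 h, without overlap. Myod1 is the brightest of them and was lower on each 48 h array, while 3 of the 6 changes were above 0 (median 0.03), and the 2 markers on the B type overlapped in sum (1021.0 to 2863.9 at 48 h, against 2238.0 to 3495.2 at 24 h). Of markers of other cells, 3 of 11 endothelial, 3 of 12 macrophage, 3 of 12 fibroblast and 1 of 8 adipocyte markers were above the filter on the A type. Pecam1, Ptprc, Col1a1 and Adipoq were below it. The members of the fibroblast list that passed were Col1a2, Col3a1 and Tcf4, and Tcf4 is not specific to fibroblasts. The brightest Col3a1 probe set read 3772, 3247 and 3912 at 48 h, against 3234, 3543 and 3772 at 24 h. On the B type 3 of 5 fibroblast markers passed. Schwann cell and neuron markers passed in 8 of 12 cases on the A type, S100b, Ngfr, Gap43 and Nefh being below the filter. The sum over these 12 was 3083.7 to 3644.5 at 48 h, against 2912.1 to 3892.3 at 24 h. Pmp22 gave much of that sum, while Dcx and Tubb3 were higher on every 48 h array than on any 24 h array. Of the 8 changes 6 were above 0 (median 0.19), and none passed. Smooth muscle and pericyte markers passed in 7 of 11 cases and summed to 16229.3 to 18710.9 at 48 h, against 19280.3 to 20744.3 at 24 h. Acta2 gave most of that sum and overlapped between the times (12480, 14177 and 10357 at 48 h, against 13541, 14272 and 14123 at 24 h). Tagln and Smtn were lower on every 48 h array. Of 8 changes over both types 6 were below 0 and 2 above (median -0.16), and none passed. Of myosins typical of extraocular muscle, Myh6 was below the filter, Myh7b passed it on the B type, and Myh13 had no probe set with a single gene name, so these leave the kind of muscle to the label. In RNA of a whole culture, fewer cells of a type and less RNA per cell cannot be told apart.

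Few changes of the second day passed the threshold, and these were mostly rises, led by regulators and targets of ATF4 and CHOP. On the A arrays 85 of 13577 probe sets passed the threshold (0.626%): 74 were higher at 48 h (0.545%) and 11 lower (0.081%). On the B arrays 9 of 13507 passed (0.0666%), all higher, and none was lower, although 394 were lower and 417 higher at an unadjusted p under 0.05 in the same limma fit. On the A arrays 618 were lower and 927 higher at that unadjusted level. Counted as genes over both types, 67 of 12542 rose (0.534%) and 7 fell (0.0558%), while the median change over all genes was 0.022. The share of rises depended on the settings. It was 87.1% of the A calls as deposited, 69.6% (39 of 56) after median scaling and 63.9% (78 of 122) with only the times compared.

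Called probe sets did not overlap between the times in any case, which follows largely from calling them on the same values. Among all probe sets tested 10.7% lay wholly higher at 48 h and 7.85% wholly lower on the A type, and 5.49% and 5.36% on the B type. In 59 of the 74 rises, each 48 h array was also above all 12 earlier arrays, and in 68 the mean at 48 h was the highest of the 5 times. In 22 of the 74 rises and 5 of the 9 on the B type, the mean at 24 h was the lowest of the 5 times. Calls were made on the 48 h and 24 h values, so these counts follow in part from the choice of probe sets. The shares over all probe sets were not counted. Among the 48 h arrays, replicate 3 was the highest in 52 of the 74 A rises and replicate 2 the lowest in 43; over all A probe sets tested these were 4877 and 4889 of 13577. Of 39 risen A genes with further probe sets, 36 changed upward in every one of them, and in 7 every one passed the test.

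**Figure D1:**
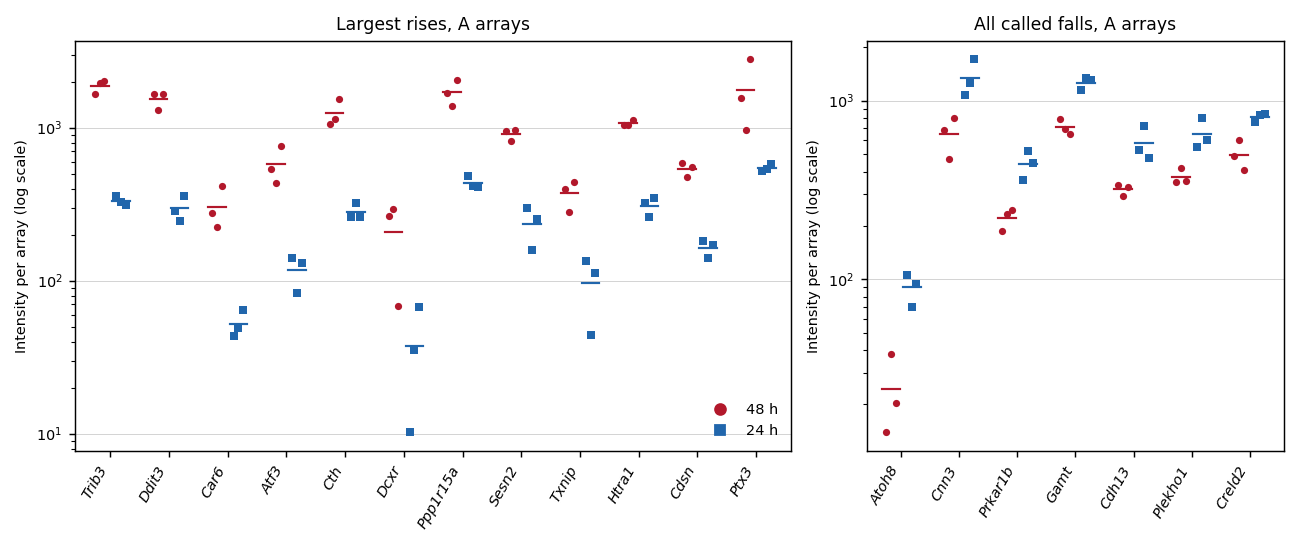
Intensity on each A array, on a log axis, for the 12 largest rises (left) and all 7 called falls (right); circles are the 48 h arrays, squares the 24 h arrays, and short lines the means of 3. No gene shown has overlapping values, and the 48 h values of Dcxr, 265, 295 and 68.1, come closest to its 24 h values.

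Regulators and targets of ATF4 and CHOP supplied 13 of the 67 rising genes. Of 29 tested members of their list, here called the stress list, 13 rose and none fell. The list's median change was 0.72, against 0.022 over all genes, and what set these genes off was not tested. The background share of rising genes was 0.534%. The count was 7 without A array 48 h replicate 3, 8 without 24 h replicate 2, 9 without either 24 h or 48 h replicate 1, and 10 to 15 under the other alternatives. Another array touched the group too: 24 h replicate 3 was the lowest of its time for 18 of the 28 members measured on the A type, and without it 12 rose.

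Trib3, a pseudokinase that ATF4 and CHOP induce and that in turn restrains ATF4, read 1666, 1964 and 2011 on the 48 h arrays, against 355, 327 and 313 on the 24 h arrays. The 48 h arrays lay far above the 24 h arrays, and the gene had a log2 change of 2.44 ± 0.21 (adjusted p = 2.12e-05), the largest rise on the A type. A second Trib3 probe set, whose probes may also match other transcripts, gave a log2 change of 1.17 ± 0.35 (adjusted p = 0.169) and did not pass. Ddit3, which encodes the transcription factor CHOP, read 1672, 1306 and 1656 on the 48 h arrays, against 287, 245 and 358 on the 24 h arrays. All 3 values at 48 h were again well above those at 24 h, with a log2 change of 2.33 ± 0.22 (adjusted p = 4.81e-05). On the B type a Ddit3 probe set of low and scattered values (664, 109 and 593 at 48 h, against 439, 153 and 162 at 24 h) overlapped between the times and did not pass (adjusted p = 0.954).

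Atf3, a stress-induced partner of the same factor family, read 539.7, 435 and 763 at 48 h, against 139.7, 83.1 and 129.8 at 24 h, with a log2 change of 2.15 ± 0.43 (adjusted p = 0.0282). Its values did not overlap, but the call was lost in 7 of 23 alternatives, 5 of which leave out a 24 h or 48 h array. Atf3 averaged 27.7, 38.8, 67.3 and 117.5 at 0, 4, 12 and 24 h. It thus passed the filter of 100.98 on the mean only through the 48 h arrays, and so entered the count of 13. Cebpb, a leucine zipper factor that pairs with CHOP, read 1759.7, 2232 and 2149 at 48 h, against 902, 869.7 and 645 at 24 h, and its probe sets changed by 1.34 ± 0.14 (adjusted p = 6.46e-05) and 1.16 ± 0.16 (adjusted p = 0.00113). Cebpg, which pairs with ATF4, read 1000.4, 899 and 1269 at 48 h, against 662, 548 and 696 at 24 h and changed by 0.71 ± 0.14 (adjusted p = 0.0286). Both factors were higher on every 48 h array than on any 24 h array.

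The brakes and effectors of the pathway rose with its factors. Ppp1r15a, the subunit GADD34 that brings a phosphatase back to eIF2, read 1693, 1392 and 2049.6 at 48 h, against 482, 416 and 407 at 24 h, with a log2 change of 1.92 ± 0.23 (adjusted p = 0.000435). Sesn2, a leucine sensor that restrains the growth kinase mTORC1, read 951, 819.5 and 969 at 48 h, against 297, 158 and 253 at 24 h and changed by 1.92 ± 0.19 (adjusted p = 5.97e-05). Its other probe set gave 1.40 ± 0.24 (adjusted p = 0.00905). Neither gene overlapped between the times. Ddit4, another brake on mTORC1, read 1348, 1290.1 and 1063 at 48 h, against 729, 602 and 835 at 24 h, a smaller change of 0.77 ± 0.17 (adjusted p = 0.0445) that was lost in 15 of 24 alternatives. Chac1, an enzyme that degrades glutathione, read 1814, 1623 and 1828 at 48 h, against 1064, 1081 and 627 at 24 h, with a log2 change of 0.95 ± 0.18 (adjusted p = 0.0167). Ero1a, which keeps the endoplasmic reticulum oxidising, passed in 3 probe sets, the first reading 968, 705 and 1251 at 48 h, against 414, 394 and 414 at 24 h. These 3 changed by 1.19 ± 0.17, 1.10 ± 0.17 and 1.13 ± 0.23. Vldlr, a lipoprotein receptor and ATF4 target, changed by 1.28 ± 0.21 (adjusted p = 0.00602) and Ndrg1, a stress and hypoxia gene, by 1.34 ± 0.24 (adjusted p = 0.0121).

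The remaining list members did not pass. Atf4 itself read 6791, 6658 and 5990.1 at 48 h, against 4619.5, 4891 and 3568 at 24 h, without overlap, and changed by 0.58 ± 0.14 (adjusted p = 0.0685), with the call gained in 4 of 24 alternatives. Slc3a2, the heavy chain of several amino acid transporters, read 6406, 6750.0 and 6135 at 48 h, against 3951, 4452 and 3117 at 24 h (0.76 ± 0.17, adjusted p = 0.057). Both lay higher at 48 h on every array without passing. Nupr1 changed by 0.74 ± 0.22 (adjusted p = 0.171), Nfil3 by 0.72 ± 0.20 (adjusted p = 0.125) and Atf5 by 0.56 ± 0.16 (adjusted p = 0.126), each with non-overlapping values. Asns, asparagine synthetase and a classic ATF4 target, read 6632, 6912 and 6266 at 48 h, against 6271, 7669 and 3994 at 24 h and overlapped between the times (0.19 ± 0.20, adjusted p = 0.775). Psat1 (0.13 ± 0.13, adjusted p = 0.767) and Fgf21 (0.13 ± 0.74, adjusted p = 0.976) did not pass either, and the 24 h values of Fgf21 were 2996, 3185 and 985, with replicate 3 far below the others.

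**Figure D2:**
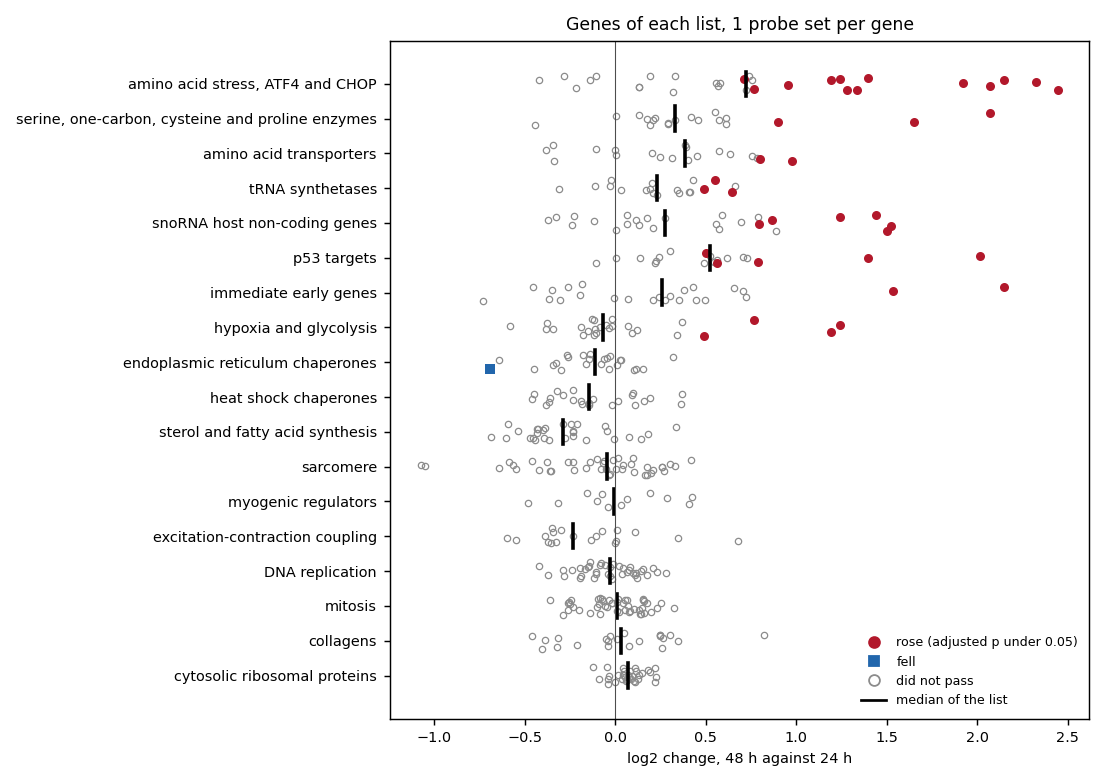
Change at 48 h against 24 h (log2, horizontal axis) of each tested gene in 18 lists, 1 probe set per gene; filled circles are genes with a probe set that rose, filled squares genes with a probe set that fell, open circles genes that did not pass, and black bars list medians. In the list of amino acid stress, ATF4 and CHOP 13 of 29 genes are filled. The sarcomere, DNA replication, mitosis, collagen and ribosomal protein lists hold no filled gene.

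Promoters of the risen genes were read for the letters TGATGNAAN, the core of the composite element to which C/EBP and ATF4 proteins bind as a pair (N is any base; both strands, 250 bases before to 50 after the RefSeq start, GRCm38.p6). They are shown because this element is what the stress genes are known to share. The 30 bases around the match are given 5′ to 3′ on the strand that carries the element, with its letters in capitals.
Trib3 (chr2:152344028-152344057, plus strand): ccccgcccggcTGATGTAAAcctgagctaa
Atf3 (chr1:191183425-191183454, plus strand): cgcggacttggTGATGCAAGtgcgagaagg
Chac1 (chr2:119351038-119351067, minus strand): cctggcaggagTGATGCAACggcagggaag
Vldlr (chr19:27216809-27216838, minus strand): gctaggagcgcTGATGCAACtattgctgct
Slc1a4 (chr11:20332699-20332728, plus strand): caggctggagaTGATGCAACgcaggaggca
Pck2 (chr14:55540152-55540181, minus strand): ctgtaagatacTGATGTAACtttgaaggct
Asns (chr6:7693213-7693242, minus strand): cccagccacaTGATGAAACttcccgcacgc

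Of the 13 risen genes of the stress list 11 had a promoter in the RefSeq table, and 4 held the letters (36.4%), namely Atf3, Chac1, Trib3 and Vldlr. Among all risen genes 7 of 58 did (12.1%), with Pck2, Slc1a4 and Rab39b added. Over all genes with a promoter 1215 of 27025 did (4.5%) and over the tested genes 285 of 10129 (2.81%). Counted by promoter, not gene, it was 1299 of 32851 (3.95%). The letters were not limited to genes that rose: 17 of 63 tested genes of the 4 amino acid lists held them (27%), and Asns, shown above, overlapped between 48 h and 24 h. The Ddit3 window held no match, which says only that these letters are not within it.

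Genes for making, moving and loading amino acids showed smaller rises. In the list of serine, one-carbon, cysteine and proline enzymes 3 of 19 tested genes rose and none fell (median 0.33), in the transporter list 2 of 19 (median 0.39) and among tRNA synthetases 3 of 19 (median 0.23). Over all genes 0.534% rose, with a median of 0.022. The enzyme count was 3 under every alternative. The transporter count was 1 after median scaling and without A array 24 h replicate 2 or 3 or 48 h replicate 1 or 3. The synthetase count was 0 after median scaling or without 24 h replicate 2 and 1 without 24 h replicate 3 or 48 h replicate 1 or 3. Cth, cystathionine gamma-lyase, which makes cysteine, read 1056, 1139 and 1549 at 48 h, against 263, 319.6 and 262 at 24 h, with a log2 change of 2.07 ± 0.23 (adjusted p = 0.000163). Aldh1l2, a mitochondrial folate enzyme measured on the B type, read 4079.8, 3412 and 6687 at 48 h, against 1438, 1338 and 1531 at 24 h, with a log2 change of 1.65 ± 0.22 (adjusted p = 0.00378). Neither gene overlapped, and for both replicate 3 was the highest 48 h array. Psph, the last enzyme of serine synthesis, read 2518, 2623 and 2737 at 48 h, against 1384, 1468 and 1345 at 24 h on the A type (0.90 ± 0.13, adjusted p = 0.00237). The same probe set is also on the B type, where it read 7881, 7041 and 6736 at 48 h, against 3857, 5292 and 3931 at 24 h and changed by 0.74 ± 0.17 (adjusted p = 0.209), in the same direction but short of the threshold. Mthfd1l (0.61 ± 0.16, adjusted p = 0.353), Shmt2 (0.58 ± 0.22, adjusted p = 0.313) and Mthfd2 (0.32 ± 0.15, adjusted p = 0.41) had positive changes that did not pass. In the probe sets used for the list median, Shmt2 and Mthfd2 each changed by 0.29.

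Among transporters, Slc6a9, which imports glycine, read 895, 1039 and 1016 at 48 h, against 530.4, 446 and 502 at 24 h (0.97 ± 0.15, adjusted p = 0.00357). Slc1a4, which carries alanine, serine and cysteine, read 764, 769.7 and 1000.1 at 48 h, against 542, 446 and 439 at 24 h (0.80 ± 0.15, adjusted p = 0.0221). Slc7a5, the leucine carrier that pairs with Slc3a2, changed by 0.45 ± 0.15 (adjusted p = 0.241) and did not pass, although its values did not overlap. The synthetases that rose were those for tryptophan, serine and arginine: Wars by 0.74 ± 0.13 (adjusted p = 0.00733), Sars by 0.64 ± 0.12 (adjusted p = 0.0169) and Rars by 0.49 ± 0.10 (adjusted p = 0.0257). The Wars probe set used for the list median changed by 0.55. Rars read 2668, 2643 and 2820.2 at 48 h, against 1989.6, 2009.8 and 1772 at 24 h, the smallest called change, and lost its call in 8 of 24 alternatives. A further pair of risen genes from outside these lists also handle amino acids or their carbon. Bcat1, the cytosolic branched-chain aminotransferase, read 2168, 2252 and 2406 at 48 h, against 1223, 1376 and 1098 at 24 h (0.88 ± 0.18, adjusted p = 0.0325). Pck2, the mitochondrial enzyme that makes phosphoenolpyruvate, read 1479, 1409.8 and 1533 at 48 h, against 817, 897 and 869 at 24 h (0.77 ± 0.17, adjusted p = 0.0489). A Bcat1 probe set on the B type overlapped between the times (0.02 ± 0.17, adjusted p = 0.998). Pck2 lost its call in 14 of 24 alternatives.

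Long non-coding RNAs that carry small nucleolar RNAs in their introns formed the second group, and Zfas1 among them had the smallest adjusted p on the B type. These host genes are spliced to release the snoRNAs that guide ribosomal RNA modification, and their spliced remains are broken down on ribosomes by nonsense-mediated decay. By RefSeq positions, 25 non-coding genes whose span holds at least 1 snoRNA were tested. Of these 6 rose and none fell, against 0.534% rising over all genes, and their median was 0.27. This list was drawn up after the values of its members were seen, and the count was 5 or 6 under each alternative.

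Zfas1, with 3 snoRNAs in its span, read 15349, 11275 and 16841 on the 48 h arrays, against 5209.8, 4956 and 5594 on the 24 h arrays, with a log2 change of 1.44 ± 0.14 (adjusted p = 0.000195). Snhg12, with 4, read 5314, 3683 and 6611 at 48 h, against 1662, 1808 and 1786 at 24 h (1.52 ± 0.18, adjusted p = 0.00134). 2410006H16Rik, with 3, read 12731, 11671 and 13761 at 48 h, against 4292, 4689 and 4452 at 24 h (1.50 ± 0.17, adjusted p = 0.000887). All 3 were measured on the B type, with a wide gap between the times. On the A type Gas5, which holds 8 snoRNAs, read 6657, 7258 and 7405 at 48 h, against 3699, 4099.8 and 4485 at 24 h (0.80 ± 0.11, adjusted p = 0.00105). A second probe set gave 0.76 ± 0.11 (adjusted p = 0.00237), while 2 others, of lower intensity, overlapped between the times. Snhg5 read 2314, 1875 and 3006 at 48 h, against 1086, 854 and 1034 at 24 h (1.24 ± 0.19, adjusted p = 0.00323). Snhg1 read 3391, 2944 and 4261 at 48 h, against 1950.0, 1961 and 1819.8 at 24 h (0.87 ± 0.16, adjusted p = 0.018). Of 4 further Snhg1 probe sets none passed, and they changed by 0.05 to 0.93. A further B type transcript that rose, the non-coding 5430416N02Rik, holds no snoRNA in the annotation and read 3384, 2578 and 3219.5 at 48 h, against 1025, 1113 and 988 at 24 h (1.53 ± 0.18, adjusted p = 0.00134).

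Ribosomal genes, related to the snoRNAs by function, were counted beside them. None of 33 cytosolic ribosomal protein genes passed, with a median of 0.07, and of 32 ribosome biogenesis genes Wdr43, a factor of the small subunit, rose (0.60 ± 0.12, adjusted p = 0.0261). Over all genes 0.534% rose. In that biogenesis list 27 of 32 changes were above 0 (54.1% over all genes), with 10 at an unadjusted p under 0.05, which 5.97% of all genes reached in that direction.

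**Figure D3:**
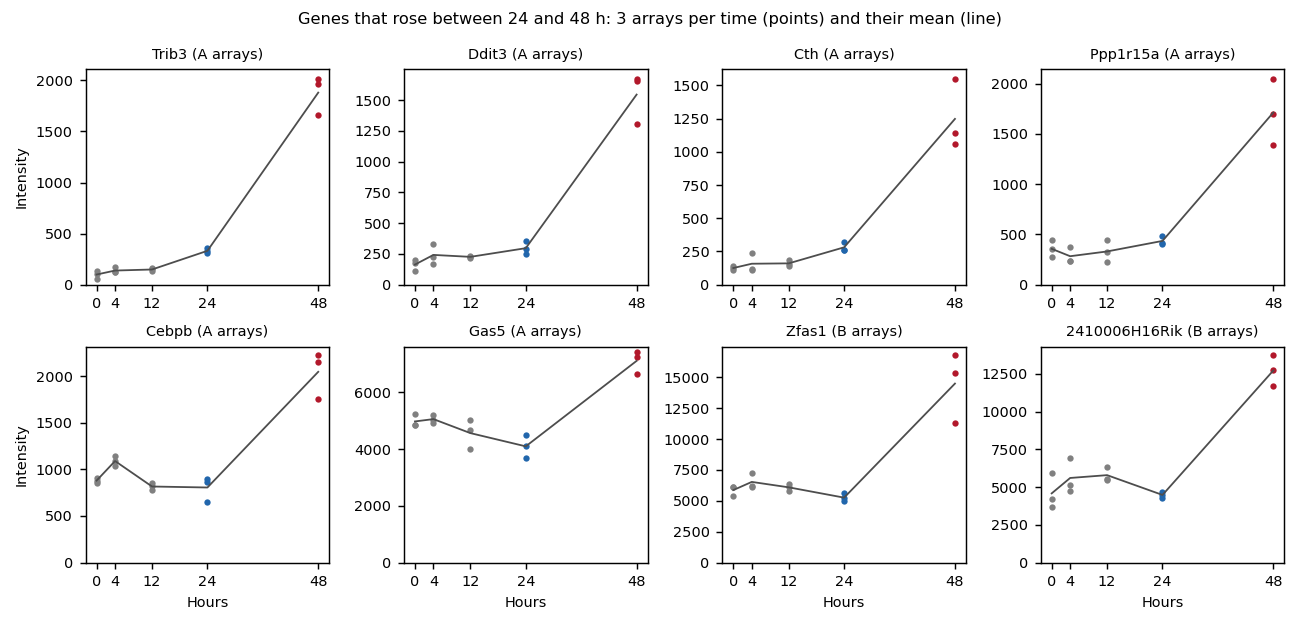
Intensity against time (hours) for 8 genes that rose between 24 and 48 h; points are single arrays, with 24 h in blue and 48 h in red, and lines join the means of 3. Trib3, Ddit3, Cth and Ppp1r15a have their highest mean at 48 h, and Gas5, Zfas1, Cebpb and 2410006H16Rik have their lowest at 24 h.

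The time courses of these genes differed before 24 h. Trib3 averaged 99.5, 139, 149, 332 and 1880.3 at 0, 4, 12, 24 and 48 h, and Ndrg1 averaged 74.1, 122, 192, 281 and 745. Over the first 24 h these 2 had already changed by 1.65 (adjusted p = 0.000238) and 1.70 (adjusted p = 0.000494). Cebpb averaged 879.6, 1089.5, 816, 805 and 2047 over the same times and Zfas1 averaged 5867, 6528, 6089, 5253 and 14488. The 0 h values of Zfas1 were 6108, 5386 and 6107, the first of them from the array whose source name is leg muscle. Neither Cebpb nor Zfas1 passed at 24 h against 0 h, with changes of -0.14 (adjusted p = 0.645) and -0.16 (adjusted p = 0.779).

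Targets of the tumour suppressor p53 formed another group: 5 of 19 tested rose and none fell, 18 of 19 changes were above 0, and the median was 0.53. Over all genes 0.534% rose, 54.1% of changes were above 0, and the median was 0.022. The count was 1 after median scaling and 1 without A array replicate 1 or 2 of either time, and Sesn2 stands in this list and in the stress list. Ccng1, cyclin G1, read 1873, 2434 and 1587 at 48 h, against 913, 978 and 1186 at 24 h (0.91 ± 0.18, adjusted p = 0.025). Zmat3, a zinc finger protein, read 1202, 1346 and 951 at 48 h, against 673, 672 and 642 at 24 h (0.79 ± 0.15, adjusted p = 0.0167). Plk2, a kinase, changed by 0.50 ± 0.11 (adjusted p = 0.0378) on the A type and by -0.17 ± 0.27 (adjusted p = 0.985) on the B type. A further Ccng1 probe set overlapped between the times (0.56 ± 0.20, adjusted p = 0.266). Outside the list, Eda2r, a receptor of the tumour necrosis factor family and a p53 target, read 3369, 3339 and 2639 at 48 h, against 1489.7, 1741 and 1464 at 24 h on the B type (0.98 ± 0.16, adjusted p = 0.026). Mdm2 and Aen, further p53 targets, changed by 0.53 ± 0.16 (adjusted p = 0.159) and 0.49 ± 0.13 (adjusted p = 0.116), and Cdkn1a by -0.11 ± 0.19 (adjusted p = 0.891). None passed, and the values of Cdkn1a overlapped. Dcxr, also in the list, read 265, 295 and 68.1 at 48 h, against 10.2, 35.1 and 67.3 at 24 h, so that its lowest 48 h array was barely above its highest 24 h array, and its call was lost in 19 of 23 alternatives.

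Of 26 hypoxia and glycolysis genes 4 rose (0.534% over all genes), and 3 of these, Ndrg1, Ero1a and Ddit4, are also in the stress list. The other was Vegfa, the vascular growth factor, which read 510.1, 448 and 613 at 48 h, against 307, 293 and 360.3 at 24 h (0.68 ± 0.15, adjusted p = 0.0402); its call was lost in 12 of 24 alternatives, and its other probe set did not pass. The list's median was -0.07, with 17 of 26 changes below 0, against 45.9% over all genes. The count of 4 was 1 without A array 24 h replicate 1, 24 h replicate 2 or 48 h replicate 3. Txnip, an inhibitor of thioredoxin and of glucose uptake, was the 1 riser of 25 genes in the list of atrophy and FOXO targets, reading 396, 283 and 444 at 48 h, against 135, 43.9 and 112 at 24 h (1.87 ± 0.38, adjusted p = 0.0301). A second Txnip probe set gave 1.34 ± 0.27 (adjusted p = 0.0286), and both calls were lost after median scaling. The ubiquitin ligases of muscle atrophy did not pass: Fbxo32 changed by 0.25 ± 0.22 (adjusted p = 0.733) and Trim63 by 0.08 ± 0.34 (adjusted p = 0.995), with overlapping values.

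Transcription factors and signalling genes outside the stress group rose singly. Klf4 was with Atf3 1 of 2 risers among 24 immediate early genes, against 0.534% rising over all genes. It read 1414, 863 and 1649 at 48 h, against 391, 485 and 408 at 24 h (1.53 ± 0.22, adjusted p = 0.00222), and its other probe set gave 1.26 ± 0.19 (adjusted p = 0.00357). Ets2, an Ets family factor, read 1429.9, 968 and 1676 at 48 h, against 484, 557 and 493 at 24 h (1.35 ± 0.18, adjusted p = 0.00105). Snai2, the factor Slug, read 503, 527 and 684 at 48 h, against 192, 175 and 323 at 24 h (1.29 ± 0.26, adjusted p = 0.0286). An Ets2 probe set on the B type overlapped between the times (0.13 ± 0.21, adjusted p = 0.985). On the A type replicate 2 was the lowest 48 h array for Klf4 and Ets2, still well above 24 h. Grem1, a secreted antagonist of bone morphogenetic proteins, rose by 1.06 ± 0.21 (adjusted p = 0.0235) and Atoh8, a helix-loop-helix factor of the same list, fell by 1.43 ± 0.27 (adjusted p = 0.02). Atoh8 read 13.9, 38.3 and 20.4 at 48 h, against 106, 70.0 and 94.3 at 24 h, so its 48 h values were of the order of the 16 added before the log. Id1, Id2 and Id3, targets of the same signal, changed by -0.14 ± 0.17 (adjusted p = 0.827), -0.71 ± 0.21 (adjusted p = 0.149) and -0.50 ± 0.17 (adjusted p = 0.239) and did not pass.

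Further called rises, grouped here after their values were seen, were of genes for secreted or adhesion proteins. Htra1, a secreted protease, read 1043, 1049 and 1125 at 48 h, against 321, 262 and 346 at 24 h (1.75 ± 0.20, adjusted p = 0.000324). Cdsn, an adhesion protein known from skin, read 588, 473 and 549 at 48 h, against 183, 139.7 and 171 at 24 h (1.62 ± 0.23, adjusted p = 0.00222). Ptx3, a pentraxin of innate immunity, read 1554, 971 and 2796 at 48 h, against 523, 534 and 582 at 24 h (1.54 ± 0.28, adjusted p = 0.0124). It was the only riser of 17 tested cytokine and NF-kB genes, against 0.534% rising over all genes. Its 48 h arrays spread widely but stayed above 24 h, and the call was lost without A array 24 h replicate 1, 24 h replicate 2, 48 h replicate 1 or 48 h replicate 3. Car6, a secreted carbonic anhydrase, read 275, 223 and 414 at 48 h, against 43.2, 48.8 and 64.8 at 24 h (2.20 ± 0.43, adjusted p = 0.0249). It averaged 48.1, 56.9, 55.7 and 52.3 at 0, 4, 12 and 24 h. These means are below the 100.98 that the filter asked for, so Car6 passed it only through the 48 h arrays. Angptl4, a regulator of lipoprotein lipase, read 599.6, 759 and 1377 at 48 h, against 473, 440.3 and 320.2 at 24 h (1.05 ± 0.23, adjusted p = 0.0403), with the call lost in 16 of 24 alternatives.

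The other called rises were of genes with varied roles. Lonp1, a protease of the mitochondrial matrix, read 1255, 1557 and 1426 at 48 h, against 647, 758 and 622 at 24 h (1.05 ± 0.17, adjusted p = 0.00444). Slc25a33, a mitochondrial pyrimidine nucleotide carrier, read 626, 549 and 688 at 48 h, against 324, 244 and 346 at 24 h (1.00 ± 0.16, adjusted p = 0.00499). Steap1, of the metalloreductase family, read 1463, 1097 and 1705 at 48 h, against 637, 685 and 427 at 24 h (1.27 ± 0.20, adjusted p = 0.00436). Stard5, a sterol-binding protein, read 666, 611 and 659 at 48 h, against 275, 228 and 302 at 24 h (1.23 ± 0.16, adjusted p = 0.00105). In none of these 4 did the times overlap, and none of the probe sets quoted lost its call under an alternative, although weaker second probe sets of Steap1 and Stard5 did. Glce (0.99 ± 0.15, adjusted p = 0.00357) and Gnpnat1 (1.25 ± 0.24, adjusted p = 0.0235), enzymes of heparan sulphate and amino sugar synthesis, Rin1 (1.04 ± 0.16, adjusted p = 0.00357), a Ras effector, and Strbp (0.97 ± 0.15, adjusted p = 0.00407), an RNA-binding protein, also rose. Smaller called changes were those of Pla2g4a (0.91 ± 0.19), Lgals8 (0.88 ± 0.17), Ephx1 (0.85 ± 0.14), Tmem43 (0.72 ± 0.14), Polr3c (0.65 ± 0.14), Plin2 (0.64 ± 0.12), Orc2 (0.62 ± 0.14), Gja1 (0.62 ± 0.13), Sqstm1 (0.57 ± 0.12) and Ghitm (0.55 ± 0.12). On the B type the small GTPase gene Rab39b read 707, 744 and 829 at 48 h, against 272, 202 and 218 at 24 h (1.66 ± 0.22, adjusted p = 0.00378), and Lhfpl2 (1.00 ± 0.16, adjusted p = 0.0223) and the ubiquitin ligase gene Rnf213 (0.75 ± 0.12, adjusted p = 0.0223) completed its 9 calls.

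Only 7 genes fell past the threshold, all on the A type, and no list held more than 1 of them. Gamt, which makes creatine, read 789.8, 695 and 649 at 48 h, against 1142, 1339 and 1306 at 24 h (-0.82 ± 0.17, adjusted p = 0.0325). Cdh13, a cadherin anchored in the membrane by lipid, read 338, 292 and 329.9 at 48 h, against 530.4, 723 and 478 at 24 h (-0.80 ± 0.15, adjusted p = 0.017). Plekho1 read 351, 418 and 354 at 48 h, against 549.6, 799.5 and 601 at 24 h (-0.76 ± 0.15, adjusted p = 0.0235). In these 3 probe sets the values were apart, but a brighter Cdh13 probe set on the B type overlapped between the times (-0.20 ± 0.16, adjusted p = 0.929). Creld2, a chaperone-like protein of the endoplasmic reticulum, read 489, 599.8 and 409 at 48 h, against 758, 829.8 and 839.6 at 24 h (-0.69 ± 0.14, adjusted p = 0.0257). It was the 1 called fall among 24 chaperones of that compartment, against 0.0558% falling over all genes. Prkar1b, a regulatory subunit of protein kinase A, fell in 1 A probe set (-0.94 ± 0.19, adjusted p = 0.0246) and not in its other there (-0.40 ± 0.17, adjusted p = 0.381) nor in 2 on the B type, which changed by -1.29 ± 0.29 (adjusted p = 0.209) and -0.35 ± 0.20 (adjusted p = 0.862). Cnn3, a calponin, fell in the dimmest of its 6 probe sets (-1.03 ± 0.23, adjusted p = 0.0462), and the other 5, all brighter, changed by -0.32 to 0.14. Next by p-value, without a call, came Kdelr3 (-0.82 ± 0.19, adjusted p = 0.0568), Maged1 (-0.76 ± 0.17, adjusted p = 0.0568), Ptov1 (-0.79 ± 0.18, adjusted p = 0.0618), Tubb2a (-0.63 ± 0.15, adjusted p = 0.0669) and Map2k2 (-0.48 ± 0.11, adjusted p = 0.0673). On the B type the lowest p-values among falls were those of Hspa12a (-1.17 ± 0.23, adjusted p = 0.0955), Dnaja1 (-0.85 ± 0.16, adjusted p = 0.0955), Shisal1 (-1.91 ± 0.39, adjusted p = 0.145), Cnr1 (-1.36 ± 0.29, adjusted p = 0.179) and Ddx50 (-1.59 ± 0.35, adjusted p = 0.179), and none passed.

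No chaperone of the endoplasmic reticulum rose. Over the 24 tested, the median change was -0.11, and 17 of 24 changes were below 0, against 45.9% over all genes. Hspa5, the chaperone BiP, read 10458, 9465 and 10167 at 48 h, against 9471, 9711 and 8585 at 24 h and overlapped between the times (0.12 ± 0.10, adjusted p = 0.728). Sdf2l1 changed by -0.64 ± 0.17 (adjusted p = 0.107) and Manf by -0.45 ± 0.13 (adjusted p = 0.159), both with lower, non-overlapping values at 48 h that did not pass. Heat shock chaperones showed no call either, 0 of 23 (median -0.14), with Dnajb1 at -0.45 ± 0.12 (adjusted p = 0.121). At an unadjusted p under 0.05, 6 of these 23 were lower and 2 higher, and of the 24 of the endoplasmic reticulum 5 were lower and none higher. Over all genes 4.1% were lower and 5.97% higher at that level.

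No gene of sterol and fatty acid synthesis passed the threshold. Of 29 tested, 25 changes were below 0, against 45.9% over all genes, and the median was -0.29. At an unadjusted p under 0.05, 15 were lower and none higher, against 4.1% and 5.97% over all genes. Hmgcs1, which commits acetyl groups to the pathway, read 4884, 4429 and 4243 at 48 h, against 5599.8, 6448 and 7827 at 24 h (-0.54 ± 0.15, adjusted p = 0.131). Fasn, fatty acid synthase, read 1560.0, 1727 and 1675 at 48 h, against 2142, 2169.6 and 2416 at 24 h (-0.44 ± 0.12, adjusted p = 0.121). Ebp, an enzyme late in cholesterol synthesis, read 1212, 1342 and 1128 at 48 h, against 1728, 1716 and 1602 at 24 h (-0.45 ± 0.13, adjusted p = 0.139). Insig1, a sterol sensor measured on the B type, read 2799, 2389 and 2413 at 48 h, against 2994, 3843 and 3486 at 24 h (-0.44 ± 0.13, adjusted p = 0.509). These 4 genes were lower on every 48 h array. Oxidative phosphorylation (29 of 35 below 0, median -0.09) and proteasome genes (28 of 33 below 0, median -0.1) had no call either.

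No muscle structure gene passed over the second day. None of 42 tested sarcomere genes, 5 sarcomeric myosin heavy chains, 12 myogenic regulators or 19 genes of excitation-contraction coupling passed, with medians of -0.04, -0.09, -0.01 and -0.24. A array 24 h replicate 3 stood apart here. It was the lowest of its time for 32 of the 38 sarcomere genes measured on the A type, as replicate 3 was at 48 h for 25 of 38. Over all A genes these were 2605 and 3223 of 7883. Acta1, skeletal actin, read 15173, 14483 and 12048 at 48 h, against 13819, 14469 and 11087 at 24 h (0.09 ± 0.15, adjusted p = 0.88). Myh3, embryonic myosin, read 7322, 7263 and 6978 at 48 h, against 10018, 9349.5 and 6656 at 24 h (-0.25 ± 0.18, adjusted p = 0.661). Myh8, perinatal myosin, read 1521, 1376 and 1723 at 48 h, against 1853, 2084 and 1127 at 24 h (-0.09 ± 0.26, adjusted p = 0.944). Myh7, the slow myosin, read 1030.4, 1130.4 and 786 at 48 h, against 910.4, 1026 and 552 at 24 h (0.27 ± 0.22, adjusted p = 0.705). In all 4 the values of the times overlapped. Myog, the factor of differentiation, changed by -0.16 ± 0.24 (adjusted p = 0.859) and Mef2c by -0.12 ± 0.15 (adjusted p = 0.829). Myod1 read 4598, 4948 and 3693 at 48 h, against 6002, 6259 and 6125 at 24 h, lower on every 48 h array, with -0.48 ± 0.18 (adjusted p = 0.303), and did not pass. Ankrd23, a stretch-responsive ankyrin protein on the B type, read 2152, 1919 and 1704 at 48 h, against 1021, 1014 and 152 at 24 h, a wide spread at 24 h under which a log2 change of 1.78 ± 0.62 (adjusted p = 0.679) did not pass. The sarcomere count stayed at 0 without A array 24 h replicate 3, and 2 genes were lower when the fit held only the times compared.

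The lists of DNA replication, mitosis, collagen and other matrix genes had no call either. Of 39 DNA replication genes, 47 mitosis genes, 22 collagens and 34 other matrix genes none passed, with medians of -0.03, 0.01, 0.03 and 0.01. Pcna, the replication clamp, read 7216, 7273 and 6568 at 48 h, against 7258, 7083 and 7568 at 24 h (-0.06 ± 0.10, adjusted p = 0.875). Cdk1, the mitotic kinase, read 2853, 3182 and 2358 at 48 h, against 2928, 2971 and 3286 at 24 h (-0.14 ± 0.15, adjusted p = 0.791). Both overlapped between the times. Fbln5, an elastic fibre protein, changed by 0.79 ± 0.33 (adjusted p = 0.347) and Postn, a matricellular protein, by 0.74 ± 0.40 (adjusted p = 0.513), each higher on every 48 h array but with a wide spread. Igf2, the main insulin-like growth factor of fetal muscle, read 9300.1, 8912 and 8314 at 48 h, against 8968, 9588 and 7924 at 24 h (0.01 ± 0.15, adjusted p = 0.995), while Col1a1 lay below the filter.

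The change over the second 24 h was then tested against that over the first, as 48 h minus 24 h less 24 h minus 0 h. Both spans use the 24 h arrays, so only this difference is tested and no overlap is drawn. On the A arrays 160 probe sets differed (1.18%), 93 with the higher change in the second span (0.685%) and 67 with the lower (0.493%). On the B arrays 8 did (0.0592%), 6 higher (0.0444%) and 2 lower (0.0148%). As genes, 81 had the higher change in the second span (0.646%) and 60 the lower (0.478%). These counts rest on the 24 h arrays: without 24 h replicate 1 the A count was 26, without 24 h replicate 2 it was 19, and without 48 h replicate 1 it was 50. Median scaling gave 81, of which 38 were higher and 43 lower, no filter 86, no intensity trend 104, and leaving out 0 h replicate 1 or 2 gave 89 or 87.

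Several xenobiotic and antioxidant genes that had read lower after the first span changed less, or upward, in the second. Of 8 targets of the aryl hydrocarbon receptor, a sensor of foreign and aromatic compounds, 5 had a higher change in the second span. Of 24 genes of NRF2 and oxidative stress 7 did, against 0.646% over all genes. Nqo1 is in both lists. Cyp1a1, the receptor's leading target, averaged 787, 1369, 293, 77.4 and 49.7 at 0, 4, 12, 24 and 48 h and changed by -0.53 over the second 24 h and -3.10 over the first, a difference of 2.57 ± 0.38 (adjusted p = 0.00702). Nqo1, a quinone reductase, averaged 1928, 2299, 1331, 610.1 and 841 and changed by 0.48 over the second 24 h and -1.65 over the first, a difference of 2.13 ± 0.28 (adjusted p = 0.00194). Both had lost most of their signal by 24 h; Nqo1 then read higher on each 48 h array, and Cyp1a1 read lower on each. Gsta4, a glutathione transferase, averaged 1499.5, 1495, 875, 284 and 378 (difference 2.66 ± 0.37, adjusted p = 0.00375). Srxn1, sulfiredoxin, averaged 461, 504, 273, 178 and 284 (difference 1.92 ± 0.32, adjusted p = 0.0132). None of these 4 passed at 48 h against 24 h (adjusted p = 0.357, 0.226, 0.576 and 0.171). The counts of 5 and 7 were 2 and 4 without A array 24 h replicate 1, 2 or 3, and the count of 5 was 2 also with no filter and without 0 h or 48 h replicate 1 or 2. It was 3 without 48 h replicate 3, after quantile normalization or median scaling, or with no intensity trend, and under the last 2 of these the count of 7 was 4.

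A few muscle and contractile genes had a lower change in the second span. Of 42 sarcomere genes 4 did and 0 had a higher one, of 20 actin cytoskeleton and SRF targets 6 did, and of 19 genes of excitation-contraction coupling none did. Over all genes 0.478% had a lower change. Myoz2, a Z-disc protein, averaged 429, 616, 1199, 1776 and 1970.4 at 0, 4, 12, 24 and 48 h and changed by 0.20 over the second 24 h and 1.98 over the first, a difference of -1.78 ± 0.36 (adjusted p = 0.024). Actn2, sarcomeric actinin, averaged 927, 993, 2435, 3619 and 3308 and changed by -0.08 over the second 24 h and 1.93 over the first, a difference of -2.01 ± 0.43 (adjusted p = 0.0304). Their 24 h values were 2004, 2172 and 1152 and 4108, 4444 and 2305, with replicate 3 low in both. Without A array 24 h replicate 3 the sarcomere count was 12, and without 24 h replicate 1 or 2 it was 0, as without 0 h replicate 1 or 48 h replicate 1. Myh8 (difference -2.16 ± 0.45, adjusted p = 0.0265) and Lmcd1, a LIM protein (difference -3.33 ± 0.59, adjusted p = 0.0164), differed in the same direction. Myl9, a smooth muscle myosin light chain, averaged 483, 460.2, 846, 2122 and 577, with 24 h values of 1416, 1594 and 3357, of which replicate 3 was far above the others, and differed by -3.96 ± 0.75 (adjusted p = 0.0202). Tagln (difference -2.03 ± 0.44, adjusted p = 0.0321) and Cnn2 (difference -1.10 ± 0.18, adjusted p = 0.0111) were lower on every 48 h array than on any 24 h array. Tagln is at once a smooth muscle marker. The summed smooth muscle markers, given above, moved the same way, but Acta2 gave most of that sum and overlapped between the times. The part of these markers in the results was not tested. The count of 6 was 1 without 24 h replicate 1 or 2, and 2 without 24 h replicate 3.

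Of 12 genes of the IGF system 2 had a lower change in the second span and none a higher one, against 0.478% and 0.646% over all genes. Igf1, a growth factor of muscle, differed in 1 of its 4 probe sets, which averaged 161, 195, 266, 412 and 209 (difference -2.21 ± 0.44, adjusted p = 0.0238). Igfbp3, its binding protein, averaged 1275, 1237, 2830.0, 3982 and 3227 on the B type (difference -1.93 ± 0.27, adjusted p = 0.0156). Both peaked at 24 h among the 5 times. Of 17 tested cytokine and NF-kB genes 4 had a higher change in the second span, against 0.646% over all genes. They were led by the subunit gene Nfkb2, which averaged 602, 431, 255, 222 and 306 (difference 1.81 ± 0.22, adjusted p = 0.000988). That count was 1 after median scaling or with no intensity trend, and 2 with the replicate block or without A array 0 h replicate 1, 24 h replicate 1, 24 h replicate 2 or 48 h replicate 1. Among the genes that rose at 48 h against 24 h, the difference passed for Cebpb (difference 1.48 ± 0.23, adjusted p = 0.00851), Sesn2 (difference 1.64 ± 0.33, adjusted p = 0.0238), Ccng1 (difference 1.91 ± 0.31, adjusted p = 0.0111), Gas5 (difference 1.08 ± 0.18, adjusted p = 0.0133) and Zfas1 (difference 1.60 ± 0.23, adjusted p = 0.0207). For Trib3 (difference 0.80 ± 0.36, adjusted p = 0.335), Ddit3 (difference 1.51 ± 0.38, adjusted p = 0.068) and Chac1 (difference -0.31 ± 0.30, adjusted p = 0.709) it did not. Further large differences were those of Angptl4 (difference 2.19 ± 0.39, adjusted p = 0.0169), Gpnmb (difference 2.32 ± 0.47, adjusted p = 0.0247) and Nefm, a neuron marker (difference 2.48 ± 0.51, adjusted p = 0.0265). Nefm read 60.6, 40.7 and 31.4 at 48 h, against 48.4, 66.8 and 15.8 at 24 h, and overlapped between the times. Its means at 48 h and 24 h were 44.2 and 43.7, against 123.75 over all 15 arrays, so it passed the filter only through earlier arrays. The Nefm difference thus rests on a fall over the first 24 h, not on a rise over the second. On the B type, large differences were those of the transporter gene Abcc4 (difference 3.07 ± 0.35, adjusted p = 0.00236) and Nsun3 (difference 2.62 ± 0.45, adjusted p = 0.0486). Lower changes were those of Pde2a (difference -2.91 ± 0.62, adjusted p = 0.0295), Tm6sf1 (difference -2.68 ± 0.58, adjusted p = 0.0304) and, on the B type, Vgll3 (difference -1.97 ± 0.33, adjusted p = 0.0377). Without the B array of 0 h whose source name is leg muscle, the differences were 3.05 for Abcc4 (adjusted p = 0.0116) and -1.80 for Igfbp3 (adjusted p = 0.0357). Without it Nsun3 (2.57, adjusted p = 0.115), Zfas1 (1.57, adjusted p = 0.0643) and Vgll3 (-1.87, adjusted p = 0.0982) did not pass.

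**Figure D4:**
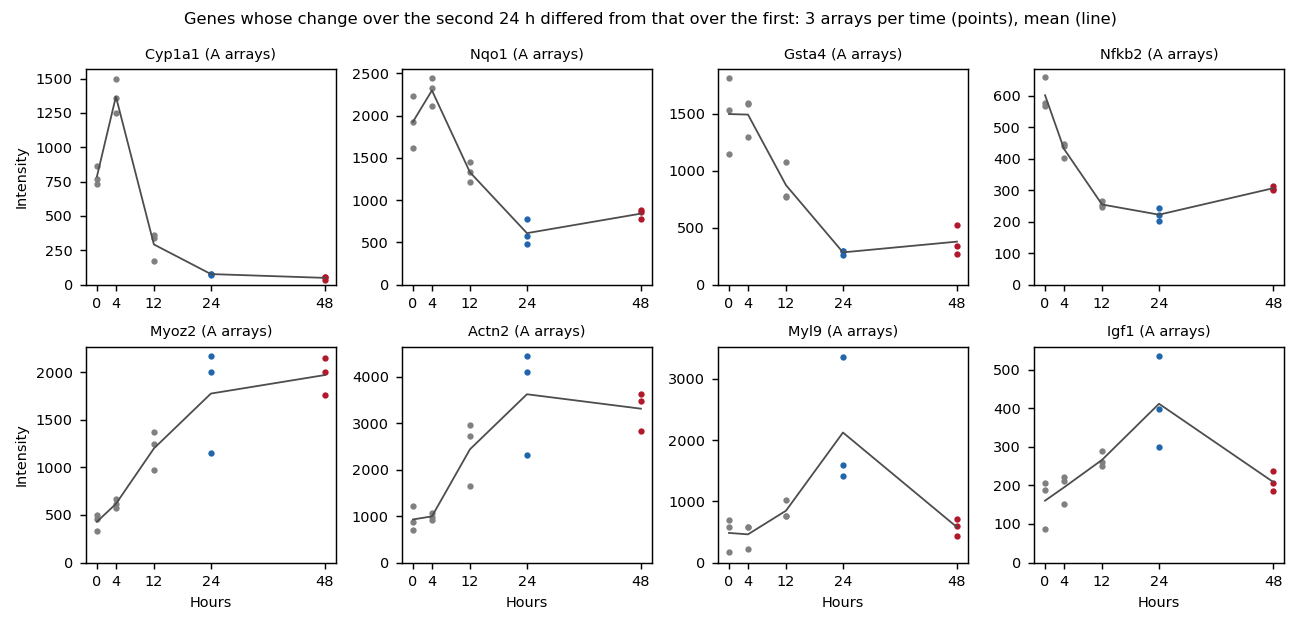
Intensity on the A arrays against time (hours) for 8 genes whose change over the second 24 h differed from that over the first; points are single arrays, with 24 h in blue and 48 h in red, and lines join the means of 3. Cyp1a1, Nqo1, Gsta4 and Nfkb2 have lower means at 24 h than at 0 h, and Myoz2, Actn2, Myl9 and Igf1 have higher ones.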

How the data were processed

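Total RNA of cultured mouse extraocular muscle was measured with 15 arrays of each of 2 Affymetrix types (A and B), 3 per time. Per the labels, the authors followed a standard Affymetrix protocol and scaled the intensities of each array to a common trimmed mean; in the deposited values that mean, taken without the top and bottom 2% of values, was 500.2 on every A array and 500.1 on every B array. The sources used here do not give the software, background correction, summary method or scan dates, so no batch could be tested.

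After removal of 64 control probe sets per type, probe sets with a mean over the 15 arrays below the 40th percentile (100.98 on A, 199.587 on B) were left out. The log2 of intensity plus 16 was fitted with limma 3.58.1 (R 4.3.3) with 1 mean per time and an intensity trend, so that all 15 arrays of a type gave 1 estimate of the spread. P-values were adjusted by Benjamini-Hochberg within each comparison and array type, with a threshold of 0.05. The types were tested apart. A gene counted as changed where any probe set with its symbol alone passed, and list medians used 1 probe set per gene. In simulated data for 48 h against 24 h the fit recovered 75% of A and 46% of B log2 changes of 1, and 97% and 84% of changes of 2. The number of arrays limits the precision, with a median SE of 0.1789 (A) and 0.2665 (B).

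Probe sets were named from the platform annotation: on the A type 20393 had 1 symbol, 691 several and 1606 none, and on the B type 14674, 245 and 7656. The 44 gene lists and 9 marker lists (1172 genes) and the comparison were chosen with earlier results of these data known, and the list of snoRNA host genes was added after its values were seen. Genes were named by size of change (the 12 largest A rises and falls and 5 on B, filled up by p-value), up to 4 called members per list, the 5 largest A and 2 largest B differences of the second from the first 24 h in each direction, and fixed anchors; further members of the lists and the remaining called genes were named after their values were seen. Alternatives changed the normalization, pseudocount, filter, trend, replicate block, times in the fit, or left out each array. The B array labelled 0 h replicate 1 has a leg muscle source name and entered only the spread and the second comparison.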

Additional observations from a re-analysis of the deposited data

How the results depend on the processing

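For 48 h against 24 h on the A arrays, 85 calls became 56 after median scaling (39 higher, 17 lower; median of all probe sets -0.054) and 122 with only the times compared (78 higher, 44 lower); leaving out 1 array gave 34 to 100. The low counts were 46 and 36 when the 24 h arrays of replicates 1 and 2 were dropped, and 34 and 37 when the 48 h arrays of replicates 1 and 3 were. On the B arrays 9 calls became 4 with only the times compared, and leaving out 1 array gave 6 to 11. For the second against the first 24 h, the 160 A calls (93 higher, 67 lower) became 81 after median scaling (38 higher, 43 lower), 86 with no filter, 104 with no intensity trend, and 19 to 207 with 1 array left out. The greater share was lower also without 24 h replicate 3 (53 higher, 72 lower) and with only the times compared (90 higher, 107 lower). The 8 B calls became 2 after median scaling, 5 with no filter, 2 with no intensity trend, 4 with a replicate block, 4 with only the times compared, and 1 to 18 with 1 array left out (2 without the 0 h array with the leg muscle source name). Fewer arrays or other genes tested are part of these settings, and otherwise the cause was not tested.

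Same-numbered 48 h and 24 h arrays deviated together with correlations of 0.111, -0.074 and 0.003 on the A type and 0.041, -0.044 and 0.114 on the B type, so the numbers were not taken as pairs. With the replicate block the counts for 48 h against 24 h were 80 on A (67 higher, 13 lower) and 6 on B, and for the second against the first 24 h 149 on A. Of the 88 called probe sets with 1 symbol, 30 kept their call in every alternative, 13 lost it in most of them, and 0 changed sign. Values near background and the 3 arrays per time limit what could be called, above all on the B type.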

Other observations

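Several gene groups outside the account above had no call yet leaned one way. Of 10 tested interferon response genes 9 changes were above 0 (median 0.36), with 4 higher at an unadjusted p under 0.05 and none lower; over all genes 54.1% were above 0. Neuromuscular junction genes had 10 of 11 changes below 0 (median -0.42), against 45.9% over all genes, with 2 lower at that unadjusted level. TGF-beta family genes and targets had 15 of 18 below 0 (median -0.13), with 3 higher and 3 lower.

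Cytokine and NF-kB genes had 14 of 17 changes above 0 (median 0.14), with Ptx3 called. The circadian clock list had no call among 14 tested genes (median 0.03), nor had the Notch pathway among 15 (median -0.13).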
